A study of Homo sapiens with 6 samples.

Results

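Kinesins are motor proteins that use ATP to act on microtubules. Some build and pull the mitotic spindle and close the cleavage furrow, others carry vesicles, organelles and protein complexes through the cytoplasm, and a few shorten microtubules from their ends. In dividing cells the spindle motors are made mainly around G2 and mitosis, while most cargo motors are present throughout the cycle. The genes considered here are those whose symbol begins with KIF followed by a digit or C. Only probe sets annotated to a single gene were read, and where a gene had several, the brightest by mean log2 value on the 6 arrays stood for it. This gave 45 symbols out of 19777 genes on the arrays. Of these, 41 are protein-coding kinesins, covered by 85 probe sets, and 4 are antisense transcripts named after a kinesin locus. By known role, 13 of the 41 were grouped as mitotic, 15 as cargo transport motors and 13 as motors with other roles. KIF4B, a close copy of KIF4A, had no probe set of its own. CENPE, a kinetochore kinesin, does not carry the KIF symbol and is given below with the partners.

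The RNA came from MDA-MB-231 cells, an established human breast cancer line without estrogen receptor. In 3 samples the cells had been transfected with an siRNA aimed at ING2, a histone-binding subunit of a SIN3 deacetylase complex, and in 3 with a non-targeting siRNA. Only 1 ING2 siRNA is named in the labels, and the time of harvest is given as day 4 in one field and day 3 in another. The labels do not state that replicates were separate cultures, so the p-values measure nothing beyond the spread of these samples, and that spread may be technical.

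ING2 itself read 163, 188 and 161 intensity units after ING2 siRNA, against 1400, 1349 and 1324 units in controls. Its level after ING2 siRNA was 12.5% of control (limma adjusted p = 1.85e-07, n = 3 per group, exact two-sided permutation p = 0.1, the smallest that 3 against 3 arrays can give). Of the mesenchymal markers expected in this line, VIM lay at percentile 99.6 of all genes by intensity, whereas SPARC lay at 26.6. Of the markers listed as low or absent in this line, PGR was at percentile 5.50, FOXA1 at 14.5, CDH1 at 24.3 and ESR1 at 40.9. On the same list GATA3 was at 55.6 and the keratin gene KRT8 at 98.0. The summed intensity of 7 fibroblast markers was 1073 to 1094 units after ING2 siRNA and 1053 to 1162 units in controls, with DCN called higher and LUM lower. For 5 blood cell markers it was 626 to 687 units after ING2 siRNA and 635 to 701 units in controls, with LYZ called lower. These 5 ran from percentile 8.53 by intensity for the leukocyte gene PTPRC to 61.8 for CD14. Only CD14 lay above the median intensity. Precision is limited by having 3 arrays in a group.

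Genes of the spindle and of division often share a pair of short promoter elements, the cell cycle genes homology region (CHR) and the CCAAT box, which bind the DREAM or MuvB complexes and the factor NF-Y. The promoters of the 5 kinesins that fell are shown first, to let the letters near their start sites be read, followed by those of KIF18B and KIFC1, mitotic members that did not pass the test. Each stretch runs from 100 bases before to 30 bases after the start site of the gene, 5′ to 3′ on the gene's strand, from RefSeq on GRCh38.p14, with CHR and CCAAT letters in capitals on either strand (a CCAAT on the other strand reads ATTGG, and TTTGAA reads TTCAAA).
KIF23 (chr15:69414249-69414378, plus strand): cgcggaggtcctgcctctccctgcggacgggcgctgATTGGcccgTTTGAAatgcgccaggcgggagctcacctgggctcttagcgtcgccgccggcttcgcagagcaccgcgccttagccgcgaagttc
KIF14 (chr1:200620722-200620851, minus strand): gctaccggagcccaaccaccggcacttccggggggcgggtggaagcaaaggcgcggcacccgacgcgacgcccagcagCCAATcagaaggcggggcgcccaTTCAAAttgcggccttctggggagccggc
KIF11 (chr10:92593030-92593159, plus strand): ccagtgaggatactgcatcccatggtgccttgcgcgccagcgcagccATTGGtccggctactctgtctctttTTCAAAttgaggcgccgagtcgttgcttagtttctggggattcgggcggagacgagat
KIF18A (chr11:28108127-28108256, minus strand): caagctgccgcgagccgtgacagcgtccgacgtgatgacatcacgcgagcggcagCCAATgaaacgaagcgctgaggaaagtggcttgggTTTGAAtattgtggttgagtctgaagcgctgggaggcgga
KIF20A (chr5:138179012-138179141, plus strand): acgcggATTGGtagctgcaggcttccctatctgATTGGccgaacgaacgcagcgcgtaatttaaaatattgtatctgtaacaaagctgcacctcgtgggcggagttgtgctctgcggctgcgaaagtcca
KIF18B (chr17:44947744-44947873, minus strand): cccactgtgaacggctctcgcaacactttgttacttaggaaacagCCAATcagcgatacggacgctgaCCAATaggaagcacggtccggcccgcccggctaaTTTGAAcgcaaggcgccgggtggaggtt
KIFC1 (chr6:33391723-33391852, plus strand): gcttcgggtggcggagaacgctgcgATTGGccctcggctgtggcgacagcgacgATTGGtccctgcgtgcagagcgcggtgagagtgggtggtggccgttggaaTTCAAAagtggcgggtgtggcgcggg

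In these letters KIF23, KIF14, KIF11 and KIF18A each hold 1 CCAAT and 1 CHR match, and KIF20A holds 2 CCAAT matches and no CHR match. KIF18B and KIFC1, which did not pass, each hold 2 CCAAT matches and 1 CHR match. KIF2C, a mitotic member that also did not pass and is not printed, holds neither motif. The search covered the window from 250 bases before to 50 after the first listed start of a gene, on both strands, for CHR as TTTGAA or TTCGAA and for CCAAT. No CHR match shared a base with a CCAAT match in the kinesin windows. Windows were matched for 33 of the 41 kinesins. Both motifs were present in 9 of the 13 mitotic windows, 1 of 11 transport windows (KIF5B), 1 of 9 windows of motors with other roles (KIF24) and 6.58% of 27305 RefSeq genes. Within the mitotic class they were present in 4 of the 5 genes that fell and in 5 of the 8 that did not pass. A match is a description of letters and not a binding site.

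Across the family, the genes called lower after ING2 siRNA in the reported fit were all mitotic motors. At an adjusted p under 0.05 in limma over all genes, 5 of the 41 coding kinesins fell and 0 rose, against 4.67% of all genes called lower, 3.62% called higher and 8.29% called in either direction. In the mitotic class 5 of 13 fell and 0 rose, and 10 of 13 had a value below 0, against 38.3% of all genes. That share covers every intensity, whereas 12 of the 13 lie above the median intensity, and bright genes leaned lower (given below). In the transport class 0 of 15 fell and 0 rose in limma, and in the class of other roles 0 of 13 fell and 0 rose. These counts hang on the threshold, with mitotic KIF20A just inside it (limma adjusted p = 0.0497) and transport KIF3A just outside (0.0504). KIF3A and the transport motor KIF5B fell under several other settings, given at the end. At an unadjusted p under 0.05, which 13.6% of all genes passed as lower and 19.4% as higher, there were 6 lower and 0 higher mitotic members. At the same unadjusted threshold the transport class had 3 lower and 2 higher members, and the class of other roles had 2 lower and 5 higher members. The median log2 change, ING2 siRNA minus control, was -0.15 for mitotic, 0.11 for transport and 0.17 for the other kinesins, beside 0.06 over all genes. The ING2 siRNA and control arrays did not overlap for 25 of the 41, against 36.5% of all genes, with 13 lower (13.8% of all genes) and 12 higher (22.8% of all genes). By class, the non-overlapping members were 8 lower and 0 higher among mitotic motors, 4 lower and 5 higher among transport motors, and 1 lower and 7 higher among the others. These class differences are a description and were not tested.

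**Figure D1:**
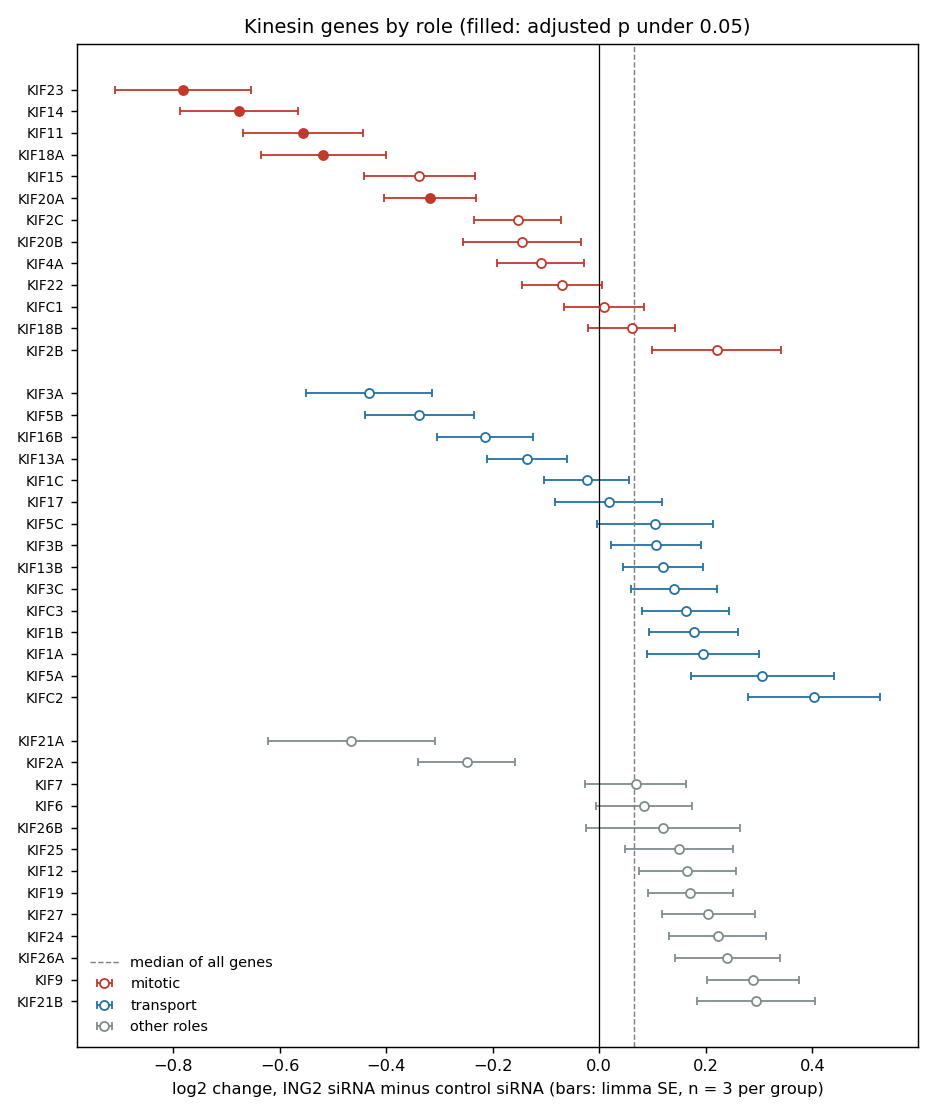
The log2 change of each of the 41 coding kinesins (x axis, ING2 siRNA minus control siRNA, bars are limma standard errors, n = 3 arrays per group), sorted within mitotic, transport and other roles, with filled points past adjusted p 0.05 and a dashed line at the median of all genes. All 5 filled points lie in the mitotic class, from -0.78 for KIF23 to -0.32 for KIF20A, and the transport and other classes run from -0.47 to 0.40 with no filled point.

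Motors of cytokinesis and the central spindle included the largest change. KIF23, the motor subunit of centralspindlin that bundles microtubules between separating chromosomes, read 373, 397 and 410.3 units after ING2 siRNA and 544, 720.2 and 786 units in controls. Every ING2 siRNA array lay below every control array, and control replicate 1 was the lowest control. KIF23 fell to 58.2% of control, a log2 change of -0.78 (SE 0.13, limma adjusted p = 0.0193), and ranked 49 of 19777 genes counted from the largest decrease.

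KIF14, which recruits citron kinase to the midbody, read 302, 395 and 365 units after ING2 siRNA and 584, 591 and 516 units in controls, without overlap. It fell by 0.68 on the log2 scale, to 62.5% of control (SE 0.11, limma adjusted p = 0.0193). KIF20A, which carries the chromosomal passenger complex to the midzone, read 1400, 1397 and 1324 units after ING2 siRNA and 1564, 1806 and 1778 units in controls, with a smaller gap between the groups. Its log2 change of -0.32 (SE 0.09) passed narrowly in limma (adjusted p = 0.0497), and did not pass after cyclic loess (-0.24, adjusted p = 0.106) or quantile normalization (-0.22, adjusted p = 0.123).

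KIF20B, a relative of KIF20A that acts late in cytokinesis, read 722, 821 and 737 units after ING2 siRNA and 717, 935 and 882 units in controls, and the groups overlapped. KIF4A, which sets the length of the midzone with PRC1, read 1232, 1264 and 1159.7 units after ING2 siRNA and 1258, 1370.5 and 1318 units in controls, also with overlap. Their log2 changes of -0.15 (SE 0.11) and -0.11 (SE 0.08) did not pass, and KIF4A is uncertain because KIF4B is nearly identical to it.

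Among motors that build the bipolar spindle, KIF11, also called Eg5, which slides antiparallel microtubules apart, read 748, 865 and 867 units after ING2 siRNA and 1035, 1294 and 1331 units in controls. The groups did not overlap, and KIF11 fell by 0.56 on the log2 scale, to 68.0% of control (SE 0.11, limma adjusted p = 0.0274). KIF15, which can take over from KIF11 in keeping spindle poles apart, read 483, 556 and 536 units after ING2 siRNA and 583, 738 and 677 units in controls. The groups were separate here too, but the log2 change of -0.34 (SE 0.10) missed the threshold (limma adjusted p = 0.0645).

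KIFC1, a minus-end motor that clusters extra centrosomes in cancer cells, stayed close to control, with 598, 593 and 604 units after ING2 siRNA and 611, 587 and 588 units in controls. Its log2 change was 0.01 (SE 0.08, limma adjusted p = 0.949).

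Motors at chromosomes and microtubule ends differed among themselves. KIF18A, which dampens chromosome oscillation at the metaphase plate, read 322, 324 and 327 units after ING2 siRNA and 386, 543 and 477 units in controls. The ING2 siRNA arrays were almost level while the controls were spread, again with replicate 1 lowest. KIF18A fell by 0.52 on the log2 scale, to 69.8% of control (SE 0.12, limma adjusted p = 0.0339).

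KIF18B, its closest relative, which trims astral microtubules, read 1088, 1159 and 1225 units after ING2 siRNA and 1141, 1070.1 and 1116 units in controls, and the groups overlapped. Its log2 change was 0.06 (SE 0.08, limma adjusted p = 0.620). KIF2C, also called MCAK, a depolymerase that corrects faulty kinetochore attachments, read 2323, 2224 and 2048 units after ING2 siRNA and 2454, 2398 and 2470.4 units in controls, without overlap. Its log2 change of -0.15 (SE 0.08) did not pass (limma adjusted p = 0.215). A second, dimmer KIF2C probe set read 643, 632 and 557 units after ING2 siRNA and 736, 770 and 760 units in controls. Its log2 change of -0.31 (SE 0.09) did not pass either (limma adjusted p = 0.0626 over all probe sets).

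KIF22, a chromosome arm motor also called Kid, had a log2 change of -0.07 (SE 0.08, limma adjusted p = 0.525). KIF2B, a relative of KIF2C, read 28.3, 23.0 and 29.5 units after ING2 siRNA and 19.9, 25.1 and 24.3 units in controls, at percentile 12.6 of all genes by intensity. KIF2B was the only mitotic member below the median intensity.

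**Figure D2:**
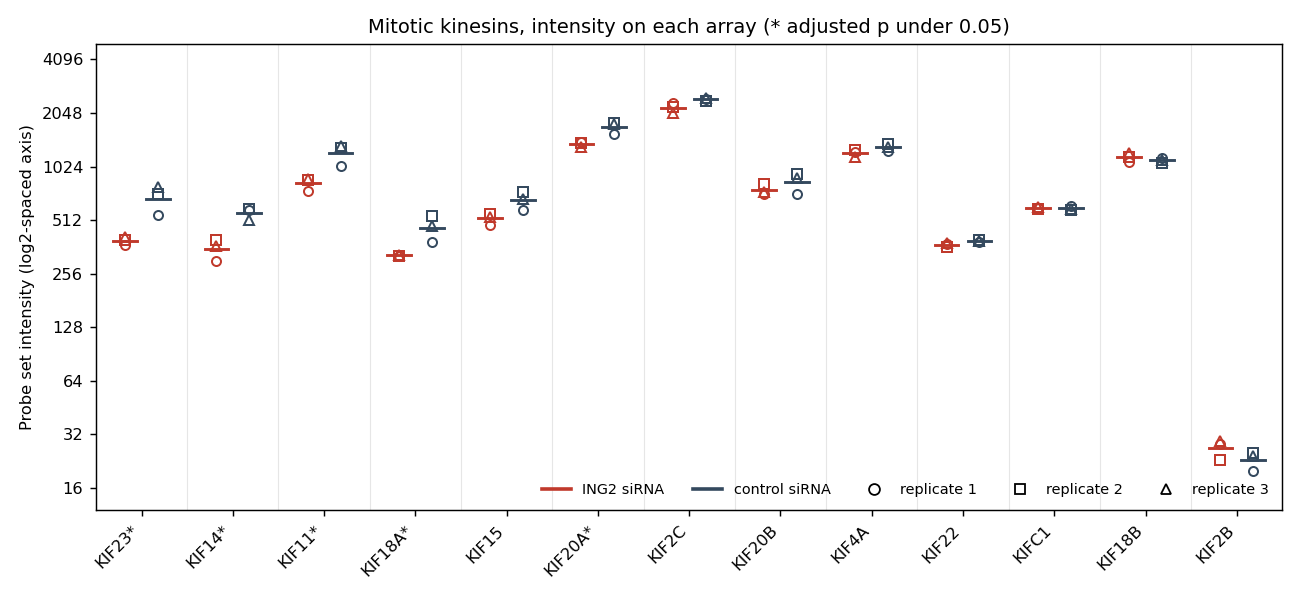
Intensity of the 13 mitotic kinesins on each array (y axis, deposited units on a log2-spaced scale), with ING2 siRNA in red to the left of control siRNA in grey, symbols for replicates 1 to 3, horizontal bars at the geometric mean and an asterisk at adjusted p under 0.05. The groups do not overlap for KIF23, KIF14, KIF11, KIF18A, KIF15, KIF20A, KIF2C and KIF22, and levels of different genes come from different probe sets and are not comparable.

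Averaged over the mitotic kinesins and set against the control mean, the log2 intensity was -0.30, -0.24 and -0.24 on the ING2 siRNA arrays and -0.11, 0.08 and 0.04 on the control arrays. Control replicate 1 therefore lay nearest to the ING2 siRNA arrays. The same mean over 16 other G2 and M markers was -0.32, -0.21 and -0.26 on the ING2 siRNA arrays and -0.12, 0.06 and 0.06 on the control arrays, in a like order. Of those markers 6 fell and 0 rose, against 8.25% and 1.96% of all genes above the median intensity, where all 16 lie. Their median was -0.27, and -0.18 once the median of all genes of like intensity (in 10 equal bins) was taken off each marker. Of all genes 38.3% lay below 0, but that share covers every intensity, and the brightest bin had a median of -0.09. Of these bright markers 13 of 16 lay below 0. The markers that fell furthest were the cyclin gene CCNA2 (log2 -0.62, limma adjusted p = 0.0387), the centrosomal kinase gene NEK2 (-0.54, adjusted p = 0.0302) and the checkpoint kinase gene TTK (-0.53, adjusted p = 0.0470, and 0.0583 after cyclic loess). The others called lower were CDK1 (-0.50, limma adjusted p = 0.0368, and 0.0595 after cyclic loess), BUB1 (-0.47, adjusted p = 0.0266) and CCNB1 (-0.43, adjusted p = 0.0256). Above 0 and not past the threshold were FOXM1, a transcription factor of G2 genes (0.21), the mitotic kinase gene PLK1 (0.14) and CDC20, an activator of the anaphase-promoting complex (0.02). In a bulk sample, fewer cells in G2 or mitosis and less RNA per such cell cannot be told apart. The part of cell cycle phase in the kinesin changes was not tested.

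**Figure D3:**
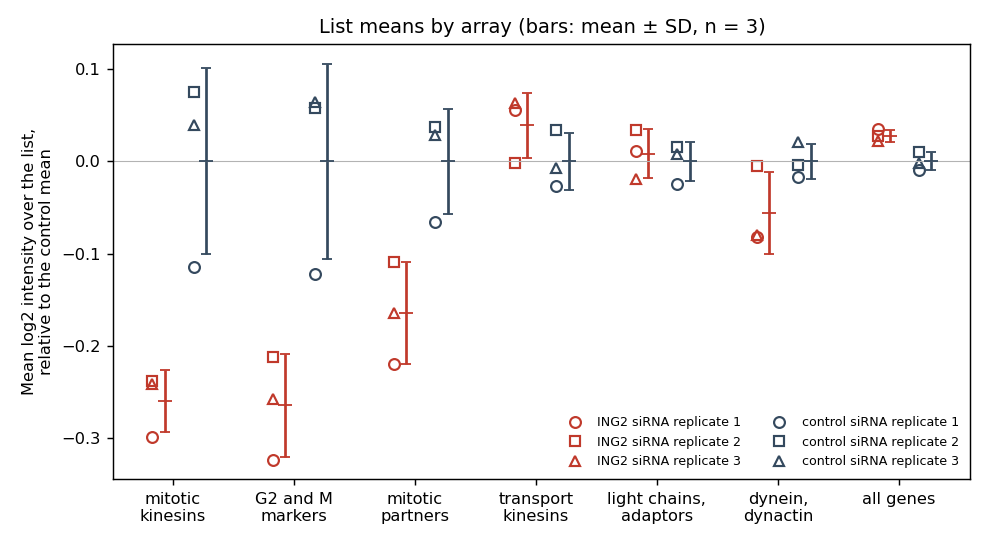
Mean log2 intensity of each list on each array relative to the control mean (y axis), with ING2 siRNA in red to the left of control siRNA in grey and bars showing mean ± SD (n = 3). The mitotic kinesins, the G2 and M markers and the mitotic partners lie lower on all ING2 siRNA arrays than on any control array, with control replicate 1 the lowest control in each, whereas the transport kinesins and their adaptors overlap or lie near 0. PLK1 and AURKA are on both the marker list and the mitotic partner list.

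Proteins that work with the mitotic kinesins were followed as a list of 19 measured genes, of which PLK1 and AURKA are also among the G2 and M markers. Of these, 2 fell and 0 rose, against 8.25% called lower and 1.96% called higher of all genes above the median intensity, where 18 of the 19 lie. In all 14 lay below 0, against 38.3% of all genes of every intensity. The median log2 change was -0.15, and -0.10 once the median of all genes of like intensity was taken off each gene. ECT2, the exchange factor that centralspindlin brings to the cell equator, fell by 0.67 (SE 0.17, limma adjusted p = 0.0421), and KNSTRN, a spindle and kinetochore adaptor, fell by 0.35 (SE 0.10, limma adjusted p = 0.0495). After cyclic loess neither passed (limma adjusted p = 0.0511 and 0.0812).

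RACGAP1, the other subunit of centralspindlin, read 1729, 1975 and 1694 units after ING2 siRNA and 1986, 2380 and 2521 units in controls. Its arrays did not overlap, but with a narrow gap (1975 against 1986 units), and the log2 change of -0.35 (SE 0.11) did not pass (limma adjusted p = 0.0657). CENPE, the kinetochore kinesin, read 1188, 1244 and 1158 units after ING2 siRNA and 1231, 1646 and 1455 units in controls, with overlap and a log2 change of -0.26 (SE 0.11, limma adjusted p = 0.126).

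Cargo motors had values on both sides of 0, none past the threshold in the reported fit. In the heterotrimeric motor of cilia and Golgi traffic, KIF3A read 255, 262 and 258 units after ING2 siRNA and 285, 386 and 386 units in controls, without overlap. Its log2 change of -0.43 (SE 0.12) lay just outside the threshold (limma adjusted p = 0.0504) and just inside it after cyclic loess (-0.45, adjusted p = 0.0466). Its usual partner KIF3B read 1551, 1472 and 1660.1 units after ING2 siRNA and 1371, 1480 and 1498 units in controls, with overlap and a log2 change of 0.11 (SE 0.08).

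KIF3C, an alternative partner of KIF3A, had a log2 change of 0.14 (SE 0.08). KIFAP3, the cargo-binding subunit of the same motor, read 514, 543 and 512 units after ING2 siRNA and 581, 631 and 602 units in controls. Its groups were separate, and the log2 change of -0.21 (SE 0.08) did not pass (limma adjusted p = 0.103).

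The conventional kinesin heavy chain KIF5B, which carries mitochondria and lysosomes outward, read 2441, 2676 and 2549 units after ING2 siRNA and 2919, 3723 and 3092 units in controls. The groups did not overlap, and the log2 change was -0.34 (SE 0.10, limma adjusted p = 0.0626). The neuronal heavy chains KIF5A and KIF5C had log2 changes of 0.31 (SE 0.13) and 0.10 (SE 0.11) with overlapping groups, at percentiles 34.1 and 36.8 by intensity. The light chain KLC1, which links the heavy chains to cargo, had a log2 change of 0.05 (SE 0.08, limma adjusted p = 0.665).

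KIFC2, a minus-end motor known from neurons, had the largest positive log2 change of the coding members, and read 449, 498 and 531 units after ING2 siRNA and 422, 397 and 307 units in controls. The groups did not overlap, and the change of 0.40 (SE 0.12) did not pass in the deposited values (limma adjusted p = 0.0638) but did after quantile normalization (0.45, adjusted p = 0.0482). A second KIFC2 probe set, nearly as bright, read 430, 415 and 427 units after ING2 siRNA and 470, 355 and 315 units in controls. There the groups overlapped, and the log2 change was 0.18 (SE 0.14, limma adjusted p = 0.393 over all probe sets). The remaining transport motors KIF1A, KIF1B and KIF1C, which move synaptic vesicle precursors, mitochondria and other cargo, and KIF13A, KIF13B, KIF16B, KIF17 and KIFC3 had log2 changes from -0.21 for KIF16B, an endosome motor, to 0.20 for KIF1A.

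Of 21 kinesin light chains, adaptors and cargo receptors, 0 rose and 0 fell in limma, with 5 lower and 5 higher at an unadjusted p under 0.05 (13.6% and 19.4% of all genes) and a median of 0.07. In dynein and dynactin, the motor of opposite direction, 1 of 24 measured genes fell (DCTN6, log2 -0.33, SE 0.08, limma adjusted p = 0.0411, and 0.111 after cyclic loess), 0 rose and the median was -0.05. The share of all genes called lower was 4.67%, and 8.25% of those above the median intensity, where 21 of the 24 lie.

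**Figure D4:**
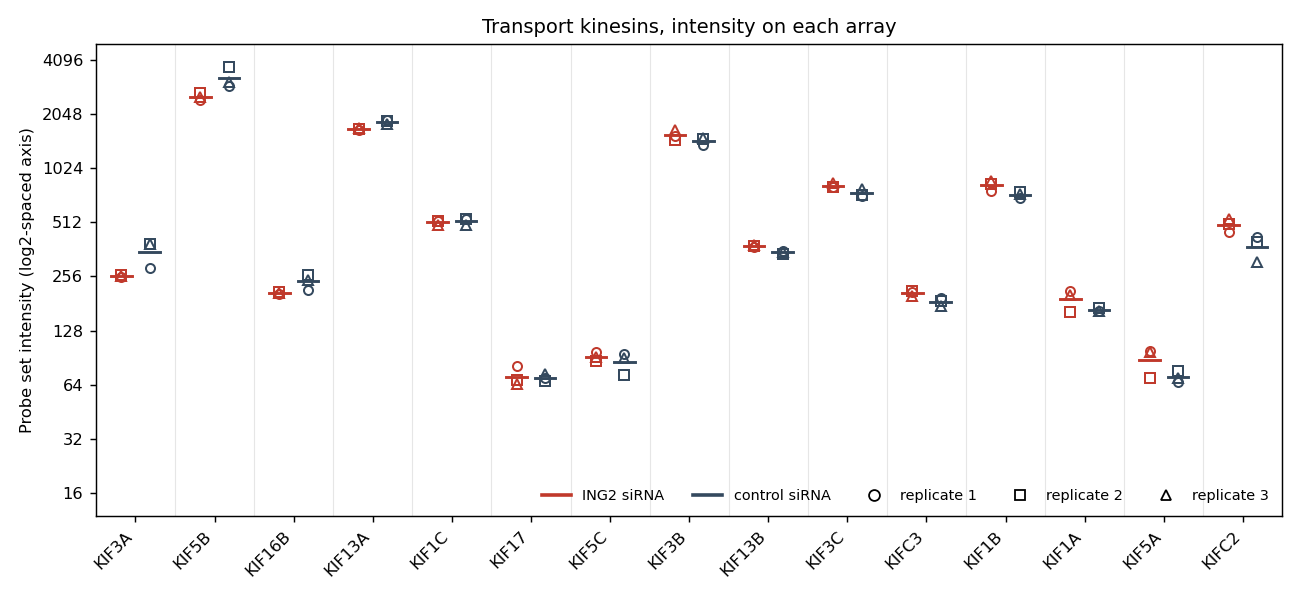
Intensity of the 15 transport kinesins on each array (y axis, deposited units on a log2-spaced scale), with ING2 siRNA in red to the left of control siRNA in grey, symbols for replicates 1 to 3 and horizontal bars at the geometric mean. The groups do not overlap for KIF3A, KIF5B, KIF16B and KIF13A, lower after ING2 siRNA, or for KIF13B, KIF3C, KIFC3, KIF1B and KIFC2, higher after ING2 siRNA, and none of the 15 passed adjusted p 0.05.

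Motors with other roles were mostly above 0 and dim. KIF21A, which slows microtubule growth at the cell cortex, read 179, 220.3 and 154 units after ING2 siRNA and 201, 279.6 and 283 units in controls, with overlap between ING2 siRNA replicate 2 and control replicate 1. Its log2 change was -0.47 (SE 0.16, limma adjusted p = 0.0792). KIF2A, a depolymerase of spindle poles and growing neurites, read 651, 742 and 736 units after ING2 siRNA and 783, 849 and 898 units in controls, without overlap. Its log2 change was -0.25 (SE 0.09, limma adjusted p = 0.0955). With KIF2A counted as mitotic instead, 5 mitotic genes fell, the mitotic median was -0.20 and mitotic minus transport medians were -0.31.

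KIF9, a motor linked to motile cilia, read 804, 703 and 693 units after ING2 siRNA and 619, 594 and 584 units in controls, also without overlap. Its log2 change was 0.29 (SE 0.09, limma adjusted p = 0.0617). KIF21B, a relative of KIF21A known mainly from neurons and immune cells, read 52.8, 46.9 and 50.5 units after ING2 siRNA and 45.4, 34.6 and 43.2 units in controls, with a narrow gap between the groups. Its log2 change was 0.29 (SE 0.11, limma adjusted p = 0.101). The others had log2 changes from 0.07 to 0.24, none past the threshold. They were KIF7, a regulator of Hedgehog signalling at the cilium tip, KIF24, which restrains cilium assembly, KIF27, a relative of KIF7, and KIF6, KIF12, KIF19, KIF25, KIF26A and KIF26B. Of the 13 genes in this class, 10 lay below the median intensity, and KIF24 at percentile 5.34 was the dimmest.

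Of the 4 antisense symbols, KIF1C-AS1 was called higher, with 74.1, 79.1 and 73.0 units after ING2 siRNA and 59.0, 61.2 and 62.0 units in controls, a log2 change of 0.31 (SE 0.08) at a limma adjusted p of 0.0422. Of all genes 3.62% were called higher. The call was lost whichever array was left out (adjusted p from 0.0542 to 0.124) and after cyclic loess (0.17, adjusted p = 0.244). KIF1C itself had a log2 change of -0.02. KIF25-AS1 read 145, 119.9 and 151 units after ING2 siRNA and 115, 118.6 and 113 units in controls, a narrow gap, with a log2 change of 0.26 (SE 0.10) that did not pass. KIF9-AS1 read 94.1, 77.3 and 82.5 units after ING2 siRNA and 72.7, 70.1 and 83.3 units in controls, and KIF23-AS1 read 29.4, 26.1 and 24.7 units after ING2 siRNA and 25.9, 25.5 and 26.7 units in controls. Both overlapped, with log2 changes of 0.17 (SE 0.10) and 0.03 (SE 0.09).

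Intensity moved with these values on the arrays as a whole. With all genes in 10 bins of equal size by mean intensity, the median log2 change was 0.15 in the second bin from the dimmest and -0.09 in the brightest bin. In both the mitotic and the transport class 12 genes lay above the median intensity. Among those, 5 mitotic and 0 transport genes fell, and 0 of either rose, against 8.25% called lower and 1.96% called higher of all genes above the median intensity, and the median log2 changes were -0.24 for mitotic and 0.11 for transport. Relative to the median of its own intensity bin, the median change was -0.10 in the mitotic, 0.11 in the transport and 0.05 in the other class. After cyclic loess KIF23 (-0.75), KIF14 (-0.66), KIF11 (-0.49) and KIF18A (-0.51) still passed in limma (adjusted p = 0.0132, 0.0124, 0.0327 and 0.0312), when 5 kinesins fell and 0 rose against 4.27% and 1.48% of all genes.

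**Figure D5:**
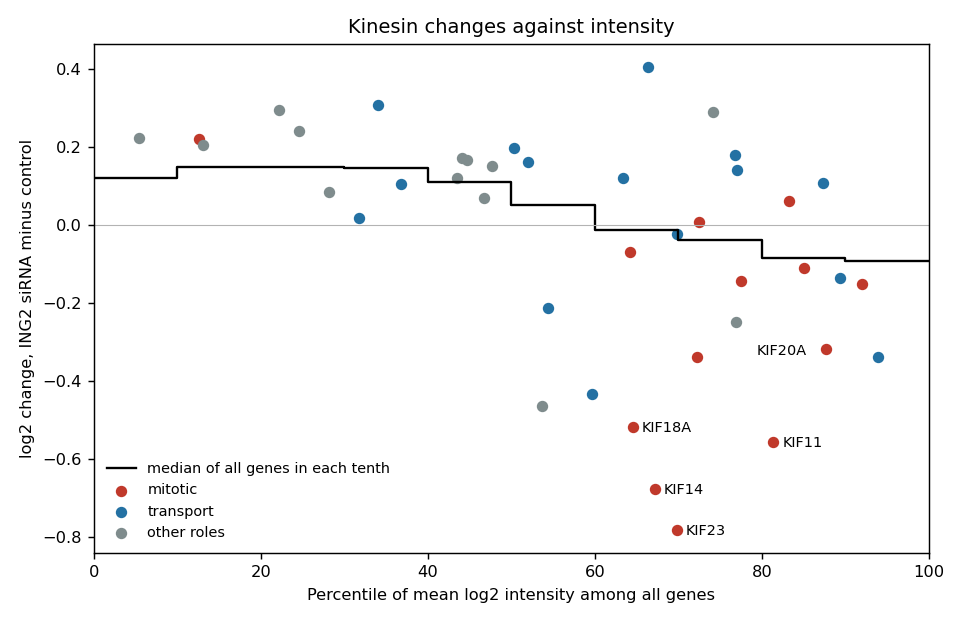
The log2 change of each coding kinesin (y axis, ING2 siRNA minus control siRNA) against its percentile of mean log2 intensity among all genes (x axis), in red for mitotic, blue for transport and grey for other roles, with a black line at the median change of all genes in each of 10 intensity bins. The 5 labelled genes that fell lie between percentiles 64.5 and 87.6 and below the line, and the transport genes of like intensity lie on both sides of it.

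Several genes had more than 1 probe set, and each was also tested on its own over 41091 probe sets, of which 5.12% were called lower and 2.18% higher. In that test KIF20A, which has 1 probe set, did not pass (limma adjusted p = 0.0599). The second KIF14 probe set read 267, 428 and 340.0 units after ING2 siRNA and 386, 541 and 521 units in controls, with overlap and a log2 change of -0.49 (SE 0.18, limma adjusted p = 0.106). The second KIF23 probe set was near the lower end of the scale with 10.2 to 14.2 units after ING2 siRNA and 13.3 to 15.1 units in controls, and its log2 change of -0.24 did not pass. The dimmest of 3 KIF5B probe sets read 203, 193 and 199 units after ING2 siRNA and 308, 303 and 274 units in controls, a clear gap, and fell by 0.57 (SE 0.09, limma adjusted p = 0.00880), while the remaining KIF5B probe set varied widely within both groups.

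Dimmer probe sets also passed as higher for KIF9 (the dimmest of 4, log2 0.51, SE 0.11, limma adjusted p = 0.0302) and KIF5A (the dimmest of 3, log2 0.37, SE 0.09, limma adjusted p = 0.0407). Probe sets of KIF13A, KIF16B, KIF1B, KIF1C, KIF20B and KIF5C lay on both sides of 0, and none of these passed.

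The calls depended on single arrays. Without control replicate 2, control replicate 3, ING2 siRNA replicate 1 or ING2 siRNA replicate 3, 0 kinesins passed in limma, when at most 3 of all 19777 genes did. Without control replicate 1, 9 fell and 1 rose, when 8.25% of all genes were called lower and 4.97% higher. Without ING2 siRNA replicate 2, 5 fell and 1 rose, when 6.83% of all genes were called lower and 6.20% higher. In that fit KIF20A did not pass and KIF21A, from the class of other roles, fell. Over these 6 fits the log2 change of KIF23 ran from -0.94 to -0.67 and that of KIF20A from -0.38 to -0.28.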

How the data were processed

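For 6 one-colour arrays the authors deposited intensity on a linear scale. The submitters' processing notes name RMA and R 2.12, and the sources used here do not give the step from log2 back to linear values. Of 54675 probe sets, 62 were controls. Gene names came from GEO's platform annotation (2016), with symbols updated by gene identifier to RefSeq GRCh38.p14 (19735 of 19777 genes matched), and 41091 probe sets named 1 gene. The log2 of each value was taken with no pseudocount or filter. The contrast of ING2 siRNA minus control was fitted in R 4.3.3 with limma 3.58.1 using lmFit and eBayes, with Benjamini-Hochberg adjustment over all 19777 genes and a threshold of 0.05. Role classes and gene lists came from general knowledge, and the members and lists were chosen with earlier results of these data known. All members are named, with full values for those past the threshold and the largest others in each class, and direct partners, list members past the threshold and a few markers and other probe sets beside them. In data simulated for this comparison over 19777 genes, the fit recovered 51% of the genes given a log2 change of 0.5 and 91% of those given 1, with 5 unchanged genes called. Median array intensity over all probe sets lay between 75.7 and 81.5 units. Among the listed genes not measured here, CIT, ACTR1A and ACTR1B had no probe set naming only them. Motor domains in the proteins were not analysed here.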

Additional observations from a re-analysis of the deposited data

How the results depend on the processing

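Mitotic kinesins that fell numbered 5 in the reported fit, 4 to 6 under each other scaling, filter, probe set summary, variance model, array weighting and the replicate block, and 0 in an ordinary linear model, which called 0 of all genes and gave ING2 a log2 change of -3.0 (adjusted p = 0.0517). All kinesins that fell were 8 after median centring, 9 with the mean of all probe sets, 10 with array weights, 9 with the replicate block (when 6.66%, 7.03%, 9.76% and 9.50% of all genes fell, against 4.67% as reported), 0 at adjusted p under 0.01 and 10 under 0.1. Kinesins that rose were 1 after quantile normalization (KIFC2), 1 without dim genes, 3 with the mean of all probe sets, and 2 with an intensity trend, array weights, the replicate block or adjusted p under 0.1. Of all genes, 2.29% rose after quantile normalization, 5.87% without dim genes and 6.21% with the mean of all probe sets. With an intensity trend, array weights and the replicate block 4.91%, 9.74% and 8.24% of all genes rose. The shares of all genes at adjusted p under 0.01 and under 0.1 are not given here. Transport members that fell were 1 after cyclic loess (KIF3A) and 2 (KIF3A and KIF5B) after median centring, without dim genes, with the mean of all probe sets, an intensity trend, array weights or the replicate block, and 1 transport member rose after quantile normalization, with the mean of all probe sets, an intensity trend and array weights. Of all genes, 4.27% fell after cyclic loess, 8.44% without dim genes and 7.26% with an intensity trend. The mitotic median was -0.15 as reported, -0.074 after quantile normalization, -0.088 after cyclic loess, -0.24 without dim genes or without members below the median intensity and -0.23 when all probe sets were averaged. The transport median was 0.071 after median centring. Mitotic minus transport medians were -0.26 as reported, -0.19 after cyclic loess, -0.34 without dim genes, -0.35 with the mean of all probe sets and -0.35 without members below the median intensity. Leaving out 1 array gave 0 to 9 kinesins that fell, 0 to 1 that rose, 0 to 6 mitotic that fell, 0 to 2 transport that fell, 0 to 1 transport that rose, a mitotic median from -0.26 to -0.12, a transport median from 0.10 to 0.14, and a difference from -0.38 to -0.23. The cause of these differences was not tested. Over genes, deviations of same-numbered arrays correlated at 0.26 for replicate 1, 0.29 for replicate 2 and -0.02 for replicate 3. Replicates 1 and 2 each correlated best with their own number, whereas ING2 siRNA replicate 3 correlated best with control replicate 1, at 0.04. A partial pairing is therefore possible, and the reported fit used none. The search for the nucleotide-binding loop in the proteins was not run. Dim members such as KIF24, KIF2B and KIF27 have values near the lower end of the intensity scale, which limits what these arrays can show of them.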
